A study of Homo sapiens with 25 samples.

Results

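The mRNAs of the translation initiation factors were followed through RNA immunoprecipitation sequencing (RIP-seq) of the RNA-binding protein IGF2BP1. They were defined by name alone, as the protein-coding genes whose GENCODE symbol starts with EIF1 to EIF6, and the rule itself uses no measured value. The rule found 56 genes among 20044 protein-coding genes and 63086 annotated genes. Of these, 47 passed the expression filter of the study, which was a normalised level above 10 CPM (the count of a gene scaled to library size) in 11.5 or more of the 23 mCherry samples. In all, 8734 protein-coding genes passed it.

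Initiation begins when eIF2 carries the initiator tRNA to the small ribosomal subunit, where eIF1, eIF1A, eIF3 and eIF5 assemble with it. The cap-binding complex eIF4F, made of eIF4E, the scaffold eIF4G and the helicase eIF4A, brings this assembly to the mRNA. Oxidative stress by arsenite activates the kinase HRI (EIF2AK1), which phosphorylates eIF2 alpha, blocks its recharging by eIF2B and leads to stress granules, into which IGF2BP1 and many of these factors move as proteins. Here their mRNAs, not the proteins, were counted.

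HCT116 is a human colorectal carcinoma cell line. The 4 engineered lines lacked IGF2BP2 and IGF2BP3, carried Tet-OsTIR1-PURO, and expressed mCherry-tagged IGF2BP1 as wild type, as the phosphomimetic linker mutants S181E or Y396E, or as the mutant RQ (R167Q, R168Q, R174Q and R178Q). Each line received PBS (control conditions) or 500 µM sodium arsenite for 2 h, mCherry was pulled down with RFP-Trap beads, and the RNA was sequenced after rRNA depletion. There were 3 libraries per line and treatment, 2 for RQ in arsenite, and 1 library per treatment from parental HCT116 cells, which carry no fusion protein and serve as the background of the beads. The engineered cells were sorted populations within a narrow mCherry gate and each library came from its own dish, so the p-values measure the spread between dishes of one population. No total RNA library was analysed here, so a change in recovery by IGF2BP1 and a change in the amount of an mRNA in the cell cannot be told apart in any value below.

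Protein-coding counts ranged from 13986350 to 37416271 in the mCherry libraries, but were 742207 in the parental control library and 15941432 in the parental arsenite library. IGF2BP1 itself was at 0 counts in both parental libraries and between 37.2 and 123 CPM in the mCherry libraries. The colon epithelial markers EPCAM, CDH1, KRT8, KRT18 and KRT19 were above 28.7 CPM in every mCherry library, while the lymphoid marker PTPRC was at 0. CD3E (lymphoid), PECAM1 (endothelium), ALB (hepatocyte) and HBB (erythroid) reached at most 1.42 CPM there. The fibroblast marker COL1A1 lay between 1.58 and 13.4 CPM. COL1A1 was at 32.8 CPM in the parental arsenite library, and PECAM1 at 24.3 CPM in the parental control library. Initiation factor mRNAs took between 0.759 and 0.966% of the protein-coding counts of an mCherry library.

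Under control conditions the levels of the initiation factor mRNAs in the wild-type RIP were compared with each other as CPM per kilobase of exon. EIF5A, the hypusine-carrying factor that relieves stalled ribosomes, had the highest level on this scale at 285 ± 48.8 CPM per kilobase (SD, n = 3). It was followed by EIF2AK1 at 234 ± 38.9 and EIF4G2, an eIF4G relative that lacks the eIF4E site, at 227 ± 8.51, and neighbours in this order differed by less than the sum of their SDs. Among the core factors, EIF3E stood at 77.2 ± 7.64, EIF4E at 49.7 ± 3.91, EIF2A at 29.6 ± 3.26, EIF4G1 at 28.3 ± 3.31, EIF2S1 (eIF2 alpha) at 17.2 ± 0.71 and EIF3A at 15.2 ± 0.188 CPM per kilobase. The eIF2B subunits, which recharge eIF2 with GTP, lay between 1.96 (EIF2B2) and 4.54 CPM per kilobase (EIF2B1). The divisor was the length of all annotated exons of a gene together, so this order depends on the annotation. For EIF3E it was 11652 bases, while its canonical transcript has 1335 coding bases and UTRs of 15 and 672 bases. For EIF5A it was 1928 bases, beside 462 coding bases and UTRs of 146 and 656 bases.

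The 9 members that were not tested were EIF2B4, EIF2AK3, EIF3C, EIF3CL, EIF4A1, EIF4E1B, EIF4EBP3, EIF2S3B and EIF1AY. EIF4A1, the major helicase of eIF4F, was at 0 counts in every library. All of its exonic bases (100%, chr17:7572825-7579006, hg38, plus strand) lie under the readthrough gene SENP3-EIF4A1 on the same strand, and reads that overlap 2 genes are dropped by the counting program by default. The values therefore say nothing of EIF4A1. EIF3C and EIF3CL are near-identical copies, whose reads map to several places and are dropped likewise, and 73.2% of the exonic bases of EIF4EBP3 are shared with ANKHD1-EIF4EBP3. EIF2AK3 (the kinase PERK) was counted but low, at 6.67, 10.5 and 6.22 CPM in the wild-type control libraries and 13.4, 12.8 and 12.5 CPM in the wild-type arsenite libraries. Among the tested members, EIF3L shares 41.6% of its exonic bases with an overlapping gene, EIF6 19.9% and EIF1B 13.1%, so part of their reads was not counted.

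Recovery over the beads was set against the single parental library of the same treatment. Under control conditions 15 of the 47 tested members (31.9%) were at least 4-fold higher in the wild-type RIP than in the parental RIP, against 47.7% of all genes tested. After arsenite these were 2 of 47 (4.26%), against 9.18% of all genes tested. The median fold of the members was 1.58 under control conditions and 0.871 after arsenite, beside 3.43 and 1.14 for all genes tested. The 2 members past 4-fold after arsenite were EIF2AK1, at 5.24-fold, and EIF4G3, a scaffold paralog of eIF4G1, at 5.16-fold. EIF4G3 had 0 counts in the parental control library, where a floor of 3 counts gave a fold of 133 in the wild-type RIP. That value rests on 1 shallow library. In the deeper parental arsenite library EIF4G3 was at 40.9 CPM (946 counts), beside 269 CPM in the wild-type control RIP. With 1 parental library per treatment these ratios carry no replicate error. In the parental control library 6 tested members had 0 counts, as did 3572 of the 8734 genes tested. When the parental arsenite library was used as the background of the control RIP, a choice made after seeing the data, 5 members passed.

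After arsenite, wild-type RIP levels of 16 members fell (34%) and those of 16 rose (34%), by edgeR's quasi-likelihood test, where a call required a Benjamini-Hochberg value below 0.05 together with a difference above 20%. Among all genes tested 31.8% fell and 35.4% rose, close to the shares of the members. The same comparison gave 17 lower and 21 higher members in S181E (all genes 34.6% and 33.3%), 14 and 16 in Y396E (33.8% and 31.3%) and 16 and 18 in RQ (32.3% and 32.4%). No member was called higher in one line and lower in another. Between 64.7 and 67.8% of all genes tested were called in each line. The share of all genes called alike in the 4 lines was not computed, so the lists below describe the members alone. Called lower in all 4 lines were 12 members, EIF1AD, EIF1AX, EIF2AK1, EIF3F, EIF3J, EIF3L, EIF4B, EIF4E, EIF4E2, EIF4E3, EIF4EBP2 and EIF5A2. Called higher in all 4 lines were also 12, EIF2B1, EIF2B5, EIF3A, EIF3B, EIF3D, EIF3I, EIF3M, EIF4A2, EIF4A3, EIF4ENIF1, EIF4G1 and EIF5B. In the wild-type RIP all of these but EIF4ENIF1 and EIF5B lay below the single parental library in both treatments. EIF4ENIF1 and EIF5B lay below it after arsenite alone. Of the members called lower in all 4 lines, EIF4E2 alone lay below it under control conditions. EIF2D, EIF3K, EIF5AL1 and EIF6 were called in no line. The splits into lower and higher members are relative to the library. Scaling on genes at or below the parental level lowers the median of all genes to between -0.42 and -0.26 on the log2 scale. With it the splits became 21 lower and 9 higher in wild type, 22 and 10 in S181E, 23 and 10 in Y396E, and 23 and 11 in RQ. The shares of all genes called under that scaling were not counted.

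**Figure D1:**
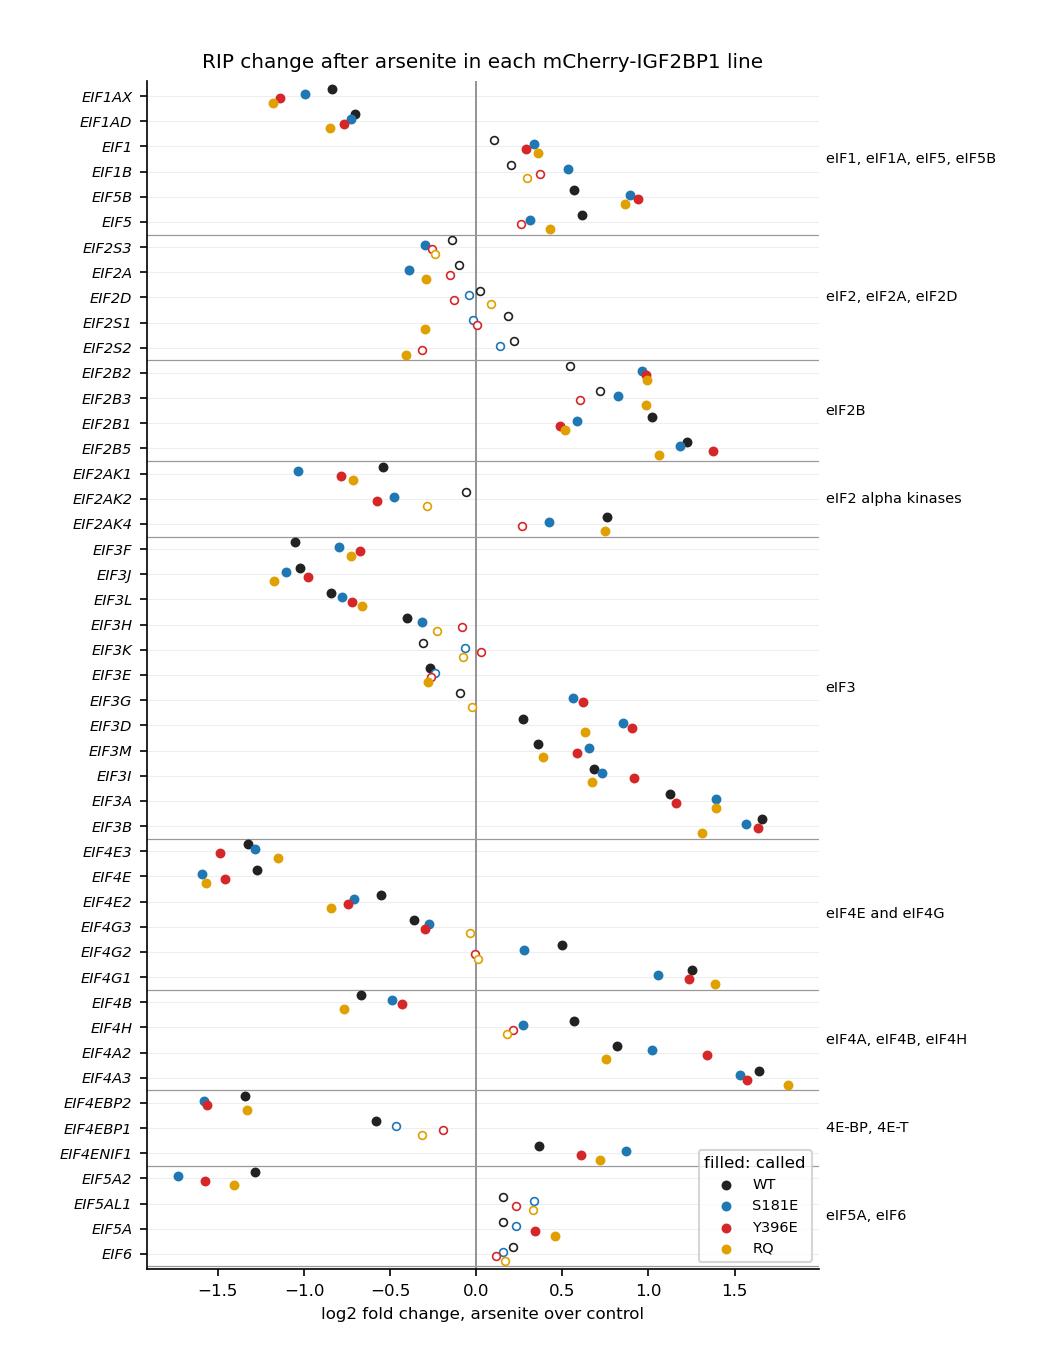
Log2 fold change of arsenite over control (x axis) for the 47 tested initiation factor mRNAs (rows, grouped by role) in the 4 lines (colours), with filled points for called changes. The points of a gene mostly lie on one side of 0, with EIF4E, EIF4EBP2 and EIF5A2 below -1 and EIF3A, EIF3B and EIF4G1 above 1 in all 4 lines.

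Of the 6 tested cap-binding and scaffold members, 4 fell and 2 rose in wild type after arsenite (66.7% and 33.3%). The shares of all genes tested were 31.8% and 35.4%. EIF4E, which binds the cap, stood at 136, 156 and 156 CPM in the wild-type control libraries and at 66.4, 58.0 and 61.9 CPM after arsenite. The groups were far apart, and the log2 fold change was -1.27 ± 0.0974 (SE; edgeR adjusted p = 1.04e-10). In S181E, Y396E and RQ the log2 changes of EIF4E were -1.59, -1.46 and -1.57. Its paralogs EIF4E2, which represses cap-dependent translation, and EIF4E3 fell with it, by 0.55 and 1.33 on the log2 scale in wild type. EIF4G1, the scaffold that EIF4E joins, went the other way, from 189, 159 and 201 CPM under control conditions to 421, 437 and 464 CPM after arsenite. Every arsenite library lay above every control library, with a log2 change of 1.26 ± 0.139 (edgeR adjusted p = 4.00e-08) and of 1.06, 1.24 and 1.39 in S181E, Y396E and RQ. The single parental libraries held EIF4G1 at 248 CPM under control conditions and 624 CPM after arsenite, above the wild-type RIP in both treatments. They held EIF4E at 23.6 and 45.6 CPM, below the wild-type RIP. EIF4A2, the helicase paralog, and EIF4A3, a relative that works in the exon junction complex, rose by 0.82 and 1.64 on the log2 scale in wild type, while EIF4B, a cofactor of the helicase, fell by 0.67.

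EIF4EBP2, an inhibitor that competes with eIF4G for eIF4E, was at 511, 482 and 510 CPM under control conditions in wild type and fell to 206, 205 and 186 CPM after arsenite. This was the largest decrease among the members in wild type, at -1.34 ± 0.104 on the log2 scale (edgeR adjusted p = 1.23e-10), and in the other lines the change lay between -1.58 and -1.33. EIF4EBP1 was called lower in wild type alone (-0.58), and no interaction test of it passed. EIF4ENIF1, the transporter of eIF4E, was higher in all lines, by 0.37 in wild type and 0.87 in S181E on the log2 scale.

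Within eIF3, the largest initiation factor, 5 of 12 tested subunits fell and 5 rose in wild type after arsenite (41.7% each). Among all genes tested 31.8% fell and 35.4% rose. EIF3B, the scaffold of the module that also holds EIF3G and EIF3I, went from 83.5, 70.6 and 47.5 CPM to 213, 212 and 221 CPM, without overlap (log2 change 1.66 ± 0.145, edgeR adjusted p = 8.92e-10). EIF3A, the largest subunit, went from 100, 101 and 102 CPM to 214, 225 and 230 CPM (1.13 ± 0.128). Both lay below the single parental library of each treatment. There EIF3B was at 311 CPM under control conditions and 408 CPM after arsenite, and EIF3A at 300 and 258 CPM. EIF3F and EIF3J moved down by 1.05 and 1.02 on the log2 scale. RIP levels of eIF3 subunits thus changed in both directions, as did those of all genes tested.

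None of the eIF2 subunits passed the test in wild type. EIF2S1, EIF2S2 and EIF2S3 had log2 changes of 0.18, 0.22 and -0.14 there. EIF2A, proposed as an alternative carrier of initiator tRNA, stood at 112, 109 and 133 CPM under control conditions and at 116, 109 and 107 CPM after arsenite in the wild-type RIP, with overlapping groups. EIF2A was called lower in S181E (-0.39) and RQ (-0.29). The 4 tested eIF2B subunits were all positive in wild type, with EIF2B1 and EIF2B5 called higher (1.02 and 1.22), and all 4 were called higher in S181E and RQ. Of the eIF2 alpha kinases, EIF2AK1 fell in every line, with log2 changes between -1.03 (S181E) and -0.54 (wild type). EIF2AK2 (PKR), an antiviral kinase, was called lower in S181E and Y396E, and EIF2AK4 (GCN2), the amino acid sensor, was called higher in wild type, S181E and RQ.

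EIF5A had a log2 change of 0.15 in wild type, while its paralog EIF5A2 went from 60.1, 72.1 and 72.1 CPM to 28.3, 27.9 and 28 CPM. The 2 groups of EIF5A2 did not overlap, and the log2 change was -1.29 ± 0.13 (edgeR adjusted p = 8.94e-09). Start codon factors were split as well: EIF1AX fell by 0.84 and EIF5B, which joins the subunits, rose by 0.57.

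Ribosomal protein mRNAs, many of which start with a run of pyrimidines (a TOP motif, through which mTOR and LARP1 control translation), gave a reference for this. Of the 76 tested ribosomal protein genes 73 fell in wild type after arsenite (96.1%), with a median of -1.04, beside 0.15 for the 47 members and 0.03 for all genes tested. The transcript start given by RefSeq (GRCh38.p14) was read for the 39 tested members with an entry, on the sense strand and at the start base alone. EIF2AK1, EIF2S2, EIF3A, EIF3E, EIF3G, EIF3H, EIF3L and EIF4EBP1 had no entry, so the shares and medians by start leave them out. A start was called a pyrimidine start where the first base was C and at least the next 4 were C or T. By this rule 9 of 39 members (23.1%), 41 of 62 ribosomal protein genes (66.1%) and 5.94% of 7194 tested genes with an entry had one. So did 4.04% of all 27305 promoters in the table. The 5 starts below are shown because they carry the same kind of start and differ in their response, with 10 bases before and 20 bases from the start base and the pyrimidine run in capitals.
EIF3F: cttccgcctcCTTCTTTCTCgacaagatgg
EIF4B: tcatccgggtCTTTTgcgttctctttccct
EIF2A: cgagcggtttCTCTTTCCgggacaacatgg
EIF3D: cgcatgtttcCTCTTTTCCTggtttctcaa
EIF4A2: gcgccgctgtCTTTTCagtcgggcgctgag
EIF3F (chr11:7987327-7987356, plus strand) and EIF4B (chr12:53006446-53006475, plus strand) fell in wild type, by 1.05 and 0.67 on the log2 scale. EIF2A (chr3:150546777-150546806, plus strand) was not called, at -0.10. EIF3D (chr22:36529147-36529176, minus strand) and EIF4A2 (chr3:186783567-186783596, plus strand) rose by 0.27 and 0.82. The 9 members with a pyrimidine start had a median of -0.10 and 5 were below 0, and the 30 others had a median of 0.21 with 10 below 0. Among all tested genes with an entry, 427 with a pyrimidine start had a median of -0.17, with 248 below 0. The 6767 others had a median of 0.05, with 3200 below 0. A match to this rule is a description of the annotated start, not of the start used in these cells.

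**Figure D2:**
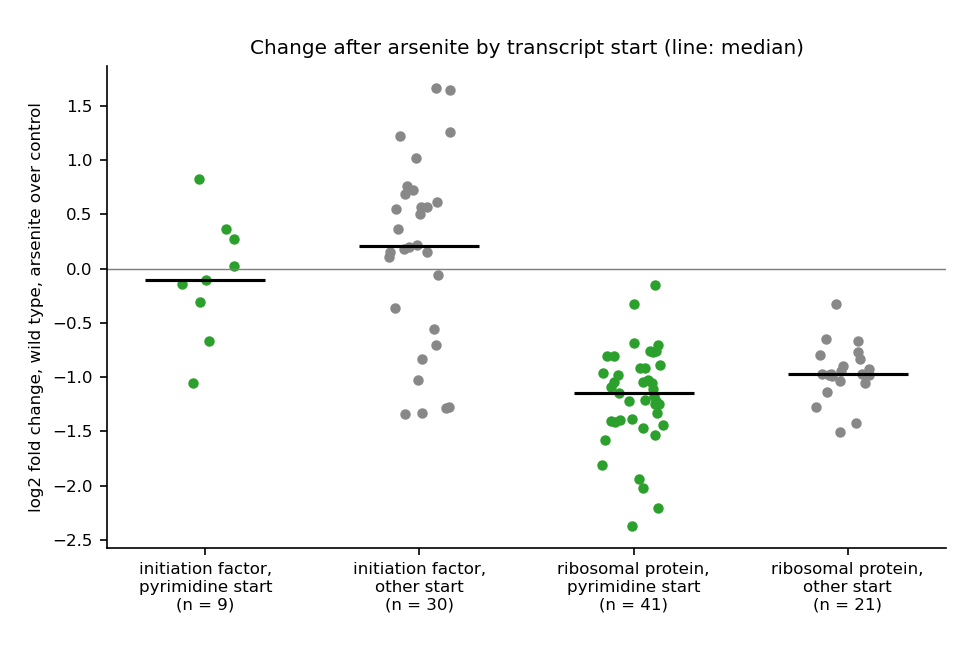
Log2 fold change of arsenite over control in the wild-type RIP (y axis) for initiation factor and ribosomal protein genes, divided by whether the annotated transcript start is a pyrimidine run; the line is the median. All 62 ribosomal protein genes lie below 0, and initiation factors with either kind of start lie on both sides of 0.

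The phosphomimetic mutants were then compared with wild type within a treatment. Under control conditions 5 members were lower and 10 higher in S181E (all genes 8.0% and 12.8%), and 5 were lower and 14 higher in Y396E (all genes 12.7% and 16.2%). In RQ 1 was lower and 4 were higher (all genes 2.83% and 3.51%). After arsenite 3 members were lower and 2 higher in S181E (all genes 5.34% and 2.20%), while 6 were lower and 19 higher in Y396E (all genes 19.4% and 13.1%). Thus 40.4% of the members were higher in Y396E in arsenite, but the direction of this split rests on the scaling. With scaling on genes at or below the parental level, which places the median of all genes at -0.26, 17 members were lower and 5 higher, and with total counts, which places it at 0.23, 4 were lower and 27 higher. In the other comparisons the splits with total counts were 3 lower and 19 higher (S181E, control), 3 and 25 (Y396E, control), 1 and 10 (RQ, control), and 2 and 12 (S181E, arsenite). On genes at or below the parental level, they were 10 and 8 (Y396E, control), 1 and 0 (RQ, control), and 3 and 1 (S181E, arsenite). With DESeq2 size factors they were 7 and 12 (Y396E, control) and 2 and 4 (RQ, control). The shares of all genes called under these other scalings were not counted, so these splits describe the members alone. In RQ in arsenite no member was called in either direction by edgeR (all genes 0.218% and 0.286%), and 9 of 47 members had an unadjusted p under 0.05 (842 of 8734 genes did). DESeq2's Wald test called 2 members, and edgeR called 7 with only the compared groups in the fit, 3 with a replicate block and 1 without a filter on low counts. That comparison rests on 2 RQ libraries. The mRNA of the bait itself differed between the lines, with mean IGF2BP1 levels under control conditions of 66.4 CPM in wild type, 66.3 in S181E, 93.0 in Y396E and 111 in RQ, and in arsenite of 40.1, 41.4, 52.1 and 80.6 CPM. Its part in these results was not tested.

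**Figure D3:**
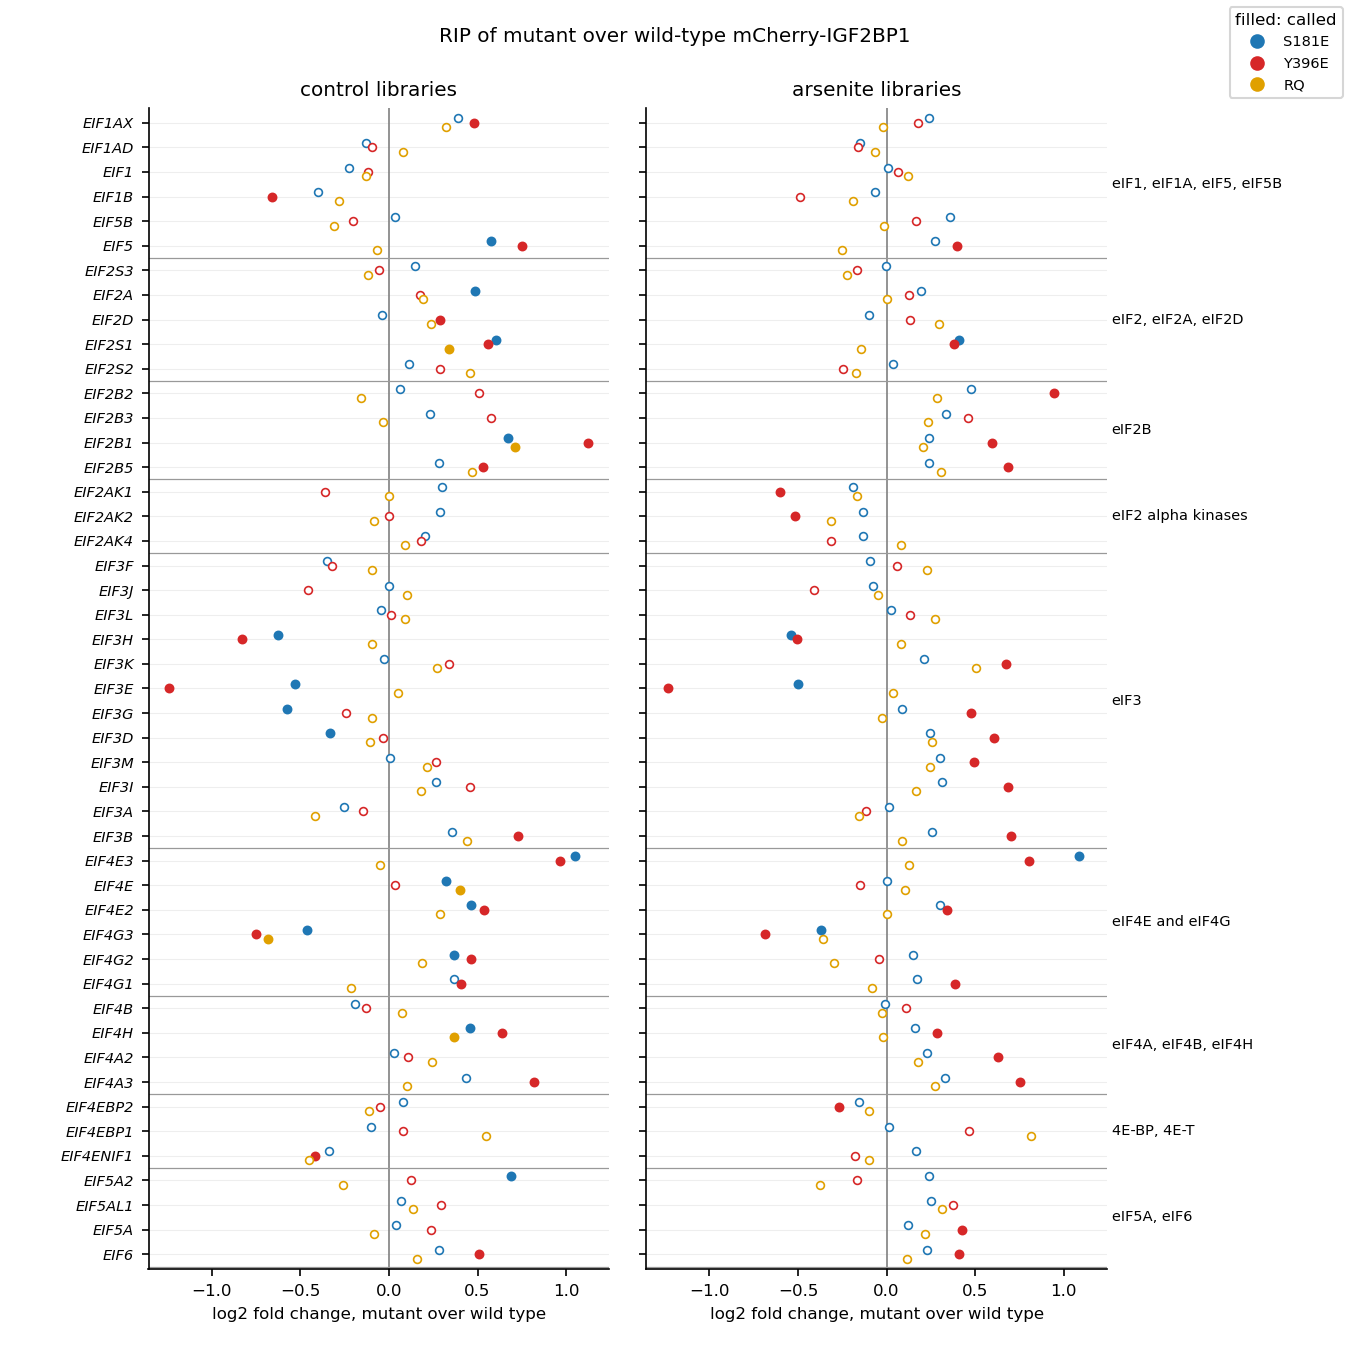
Log2 fold change of each mutant over wild type (x axes) for the 47 tested initiation factor mRNAs (rows) in control (left) and arsenite (right) libraries, with filled points for called changes. EIF3E, EIF3H and EIF4G3 are called lower and EIF2S1 and EIF4E3 higher in both phosphomimetic mutants in both panels, and no RQ point is filled on the right.

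EIF3E, a subunit of the octameric core of eIF3, was at 819, 995 and 885 CPM in wild-type control libraries, at 648, 614 and 594 CPM in S181E, and at 400, 365 and 366 CPM in Y396E. In RQ it was at 996, 983 and 813 CPM, so that S181E and Y396E each lay wholly below wild type and RQ overlapped it. The log2 changes against wild type were -0.53 ± 0.102 in S181E (edgeR adjusted p = 7.73e-04), -1.24 ± 0.104 in Y396E (edgeR adjusted p = 1.81e-08) and 0.05 ± 0.102 in RQ.

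In arsenite the same order held. EIF3E stood at 840, 721 and 697 CPM in wild type, 575, 531 and 496 CPM in S181E, 326, 322 and 292 CPM in Y396E, and 810 and 727 CPM in RQ. S181E differed from wild type by -0.50 ± 0.102 on the log2 scale (edgeR adjusted p = 0.00256), Y396E by -1.23 ± 0.103 (edgeR adjusted p = 1.15e-08) and RQ by 0.04 ± 0.114. The Y396E level in arsenite lay below the 365 CPM of the parental arsenite library, and the Y396E control level of 377 ± 19.8 CPM lay close to the 333 CPM of the parental control library. Whether S181E and Y396E differ from each other was not tested.

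EIF3H, another subunit of that core, was also lower in both phosphomimetic mutants and both treatments. It was at 254, 310 and 315 CPM in wild type under control conditions, 196, 194 and 176 CPM in S181E and 164, 161 and 164 CPM in Y396E, again without overlap. The log2 changes were -0.63 ± 0.0901 and -0.83 ± 0.0903 under control conditions, and -0.54 ± 0.0899 and -0.51 ± 0.0898 in arsenite, with edgeR adjusted p between 5.13e-07 and 3.01e-04. RQ gave -0.09 ± 0.0896 and 0.08 ± 0.0998. EIF3E and EIF3H both lie on chromosome 8 (chr8:108162787-108443496 and chr8:116642130-116766255). EIF4EBP1, also on that chromosome (chr8:38030534-38060365), was called in no mutant comparison. Each line was a single sorted population, so an effect of a mutation and another difference between lines cannot be told apart. Whether the position plays a part was not tested.

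EIF4G3 was lower in all 3 mutants under control conditions. Wild type stood at 260, 272 and 274 CPM, S181E at 204, 186 and 192 CPM, Y396E at 170, 143 and 162 CPM, and RQ at 165, 153 and 186 CPM. No mutant library reached the lowest wild-type library. The log2 changes were -0.46 ± 0.0898, -0.75 ± 0.0901 and -0.68 ± 0.09 (edgeR adjusted p = 8.31e-04, 1.94e-06 and 6.09e-05). In arsenite they were -0.37 ± 0.0896 in S181E and -0.69 ± 0.0899 in Y396E, both called, and -0.36 ± 0.101 in RQ, which was not (edgeR adjusted p = 0.159). The S181E call in arsenite was lost without S181E arsenite replicate 2 (edgeR adjusted p = 0.0614) or wild-type arsenite replicate 3 (0.057), and with total counts (0.067). The RQ call of EIF4G3 under control conditions was lost with only the compared groups in the fit (edgeR adjusted p = 0.106).

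Higher in both phosphomimetic mutants and both treatments were EIF4E3 and EIF2S1. EIF4E3, a cap-binding paralog with low counts, was at 15.0, 21.0 and 16.8 CPM in wild type under control conditions, 38.8, 24.4 and 44.8 CPM in S181E, and 34.8, 29.8 and 37.3 CPM in Y396E. RQ, at 14.9, 12.7 and 23.5 CPM, overlapped wild type. The log2 changes were 1.05 ± 0.259 in S181E (edgeR adjusted p = 0.00584) and 0.97 ± 0.258 in Y396E (edgeR adjusted p = 0.00701). In arsenite they were 1.09 ± 0.265 and 0.81 ± 0.264. These calls rested on single wild-type libraries, which stood at 6.53, 4.23 and 10.3 CPM. Without wild-type arsenite replicate 1 the edgeR adjusted p was 0.0583 (S181E) and 0.081 (Y396E), without wild-type arsenite replicate 2 it was 0.0808 and 0.124, and without Y396E arsenite replicate 2 it was 0.086 for Y396E. Under the parental-level scaling used above, the Y396E arsenite change was 0.54 (edgeR adjusted p = 0.138).

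EIF2S1, the subunit that the stress kinases phosphorylate, was at 81.7, 83.6 and 88.5 CPM in wild type under control conditions, 131, 111 and 141 CPM in S181E, 115, 117 and 137 CPM in Y396E, and 114, 102 and 105 CPM in RQ. All mutant libraries lay above all wild-type libraries. The log2 change was 0.61 ± 0.0967 in S181E (edgeR adjusted p = 1.02e-04), 0.56 in Y396E and 0.34 ± 0.0965 in RQ (edgeR adjusted p = 0.0382). In arsenite S181E and Y396E stayed higher, by 0.41 ± 0.0958 and 0.38, and RQ did not pass the test at -0.14 ± 0.108. With scaling on genes at or below the parental level neither arsenite call of EIF2S1 held, at 0.31 in S181E and 0.11 in Y396E (edgeR adjusted p = 0.16 and 0.499). The RQ call under control conditions was lost when wild-type control replicate 1 or 2, or RQ control replicate 1 or 2, was left out (edgeR adjusted p between 0.0526 and 0.138).

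**Figure D4:**
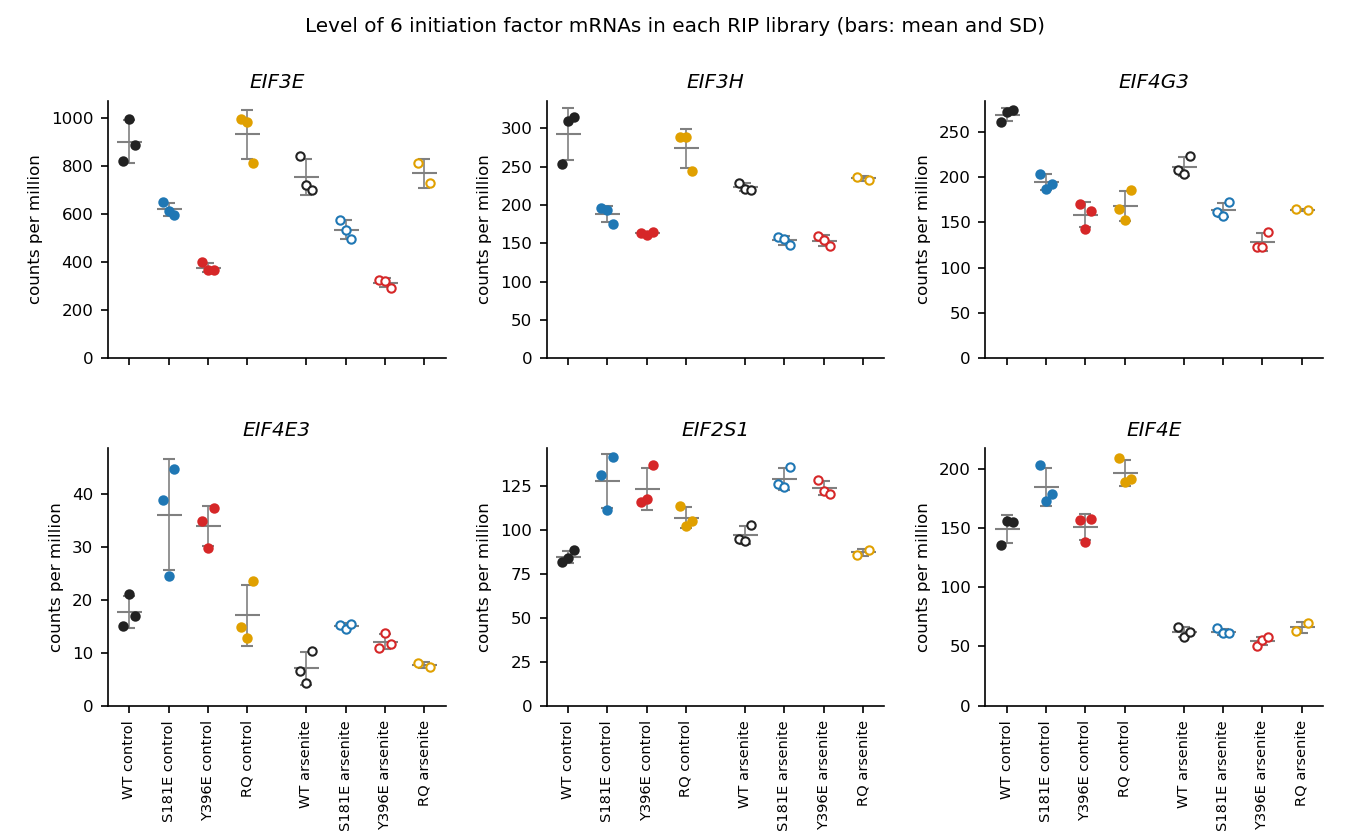
CPM (y axes, starting at 0) of 6 initiation factor mRNAs in each RIP library (points), by line and treatment, with the mean and SD of each group in grey. EIF3E lies at 900 ± 89.0 CPM in wild type and 377 ± 19.8 CPM in Y396E under control conditions, and EIF4E lies at 149 ± 11.7 CPM under control conditions and 62.1 ± 4.19 CPM after arsenite in wild type.

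Of the 4 tested eIF2B subunits 2 were higher in Y396E under control conditions and 3 in arsenite, and of the 12 tested eIF3 subunits 1 and 6, beside 16.2% and 13.1% of all genes tested. EIF2B1 was higher in Y396E by 1.13 ± 0.191 on the log2 scale under control conditions (32.3, 29.4 and 39.9 CPM against 11, 21.7 and 14.7 CPM) and by 0.59 in arsenite. The eIF2B subunits higher in arsenite were EIF2B1, EIF2B2 (0.94 ± 0.258) and EIF2B5 (0.68 ± 0.141). The eIF3 subunits higher in arsenite were EIF3B, EIF3D, EIF3G, EIF3I, EIF3K and EIF3M, with log2 changes between 0.48 and 0.70, and EIF3E and EIF3H were lower. EIF3B stood at 338, 337 and 354 CPM in Y396E and 213, 212 and 221 CPM in wild type in arsenite. EIF4A2, EIF4A3, EIF4G1, EIF4H, EIF4E2, EIF5, EIF5A and EIF6 were higher as well, between 0.28 and 0.75. With scaling on genes at or below the parental level only EIF2B2, EIF2B5, EIF3B, EIF3D and EIF4A3 were called higher in Y396E in arsenite, and EIF2B1, EIF3G, EIF3I, EIF3K and EIF3M lost their calls (edgeR adjusted p between 0.066 and 0.185), whereas EIF3E and EIF3H stayed lower and EIF3A and EIF3J were called lower as well.

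The eIF2 alpha kinases EIF2AK1 and EIF2AK2 were lower in Y396E in arsenite. EIF2AK1 was at 457, 424 and 504 CPM in Y396E and at 750, 612 and 785 CPM in wild type, without overlap (log2 change -0.60 ± 0.155, edgeR adjusted p = 0.00497). EIF2AK2 was at 152, 149 and 157 CPM against 226, 213 and 230 CPM (-0.52 ± 0.16, edgeR adjusted p = 0.0158), a call that was lost without Y396E arsenite replicate 2 (0.0516). EIF4EBP2 was lower by 0.27, and this call was lost without wild-type arsenite replicate 1 or 2, or without any one Y396E arsenite library (edgeR adjusted p between 0.0574 and 0.149).

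Also higher in S181E under control conditions was EIF5A2, at 105, 101 and 121 CPM against 60.1, 72.1 and 72.1 CPM (0.69 ± 0.127, edgeR adjusted p = 4.93e-04). EIF2A was at 165, 162 and 163 CPM against 112, 109 and 133 CPM (0.48 ± 0.0909, edgeR adjusted p = 5.90e-04). The EIF2A call was lost with only the compared groups in the fit (edgeR adjusted p = 0.0616). EIF3G was lower by 0.58 and EIF3D by 0.33. The EIF3G call was lost with only the compared groups in the fit (edgeR adjusted p = 0.105) and with total counts (0.0574). The EIF3D call was lost under both of these (0.197 and 0.315), without a filter on low counts (0.0588), and when wild-type control replicate 2 or any one S181E control library was left out (edgeR adjusted p between 0.0533 and 0.12). In Y396E under control conditions EIF4A3, EIF3B and EIF4H were higher, by 0.82, 0.73 and 0.64. EIF1B and EIF4ENIF1 were lower there, by 0.66 and 0.42. The EIF1B call was lost without Y396E control replicate 2 or wild-type control replicate 3 (edgeR adjusted p = 0.0513 and 0.168), and that of EIF4ENIF1 without any one library of the 2 groups (0.0511 to 0.145). EIF5, the GTPase-activating protein of eIF2, was higher in both phosphomimetic mutants under control conditions, by 0.57 in S181E and 0.75 in Y396E. In RQ under control conditions EIF2B1 (0.71), EIF4E (0.40) and EIF4H (0.37) were higher beside EIF2S1. With only the compared groups in the fit all of these calls were lost (edgeR adjusted p between 0.53 and 0.592). They were also lost with scaling on genes at or below the parental level (0.0501 to 0.203). The RQ call of EIF2B1 was lost without any one wild-type control library other than replicate 2 and without RQ control replicate 1 or 2 (edgeR adjusted p between 0.0699 and 0.111), and that of EIF4E without wild-type or RQ control replicate 1 (0.0515 and 0.0656). The S181E call of EIF2B1 under control conditions (0.67) was lost without wild-type control replicate 1 or S181E control replicate 2 (0.093 and 0.088). The RQ count of 5 became 3 without wild-type control replicate 1, 2 without RQ control replicate 1, 3 without RQ control replicate 2 and 9 without RQ control replicate 3.

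Whether the arsenite response itself differed between a mutant and wild type was tested by the interaction of line and treatment. No member passed for S181E (0.389% of all genes did) or RQ (0.0687%). At an unadjusted p under 0.05 in edgeR were 10 and 7 members, beside 1128 and 844 of 8734 genes. DESeq2's Wald test called 2 members for S181E and 1 for RQ. For Y396E 3 members passed (2.85% of all genes did). EIF3G was at 46.8, 45.3 and 44.8 CPM under control conditions and 42.1, 42.1 and 45.0 CPM in arsenite in wild type, but at 38.8, 39.6 and 36.3 CPM and then 59.8, 61.2 and 55.0 CPM in Y396E. The difference of the 2 responses was 0.72 ± 0.192 on the log2 scale (edgeR adjusted p = 0.0415). EIF3D gave 0.64 ± 0.15 (edgeR adjusted p = 0.0196) and EIF4G2 -0.51 ± 0.106 (edgeR adjusted p = 0.0094). EIF4G2 rose in wild type from 975, 1013 and 939 CPM to 1415, 1354 and 1401 CPM, and stood at 1307, 1300 and 1380 CPM and then 1303, 1267 and 1393 CPM in Y396E. The EIF3G call was lost when any one wild-type or Y396E library other than wild-type control replicate 3 was left out (edgeR adjusted p between 0.0527 and 0.12). The EIF3D call was lost without wild-type arsenite replicate 1, Y396E arsenite replicate 1 or 2, or Y396E control replicate 3 (0.0546 to 0.0753); the count was then 1. With total counts 2 members were lower and 0 higher, and with scaling on genes at or below the parental level 1 was lower and 1 higher.

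Across the members, the change in Y396E went with how strongly an mRNA was recovered over the beads. To keep the libraries apart, recovery was taken from RQ over parental cells in arsenite and the change from Y396E over wild type in arsenite, so the measures share no library. Spearman's rho was -0.58 over the 47 members and -0.52 over the 8734 genes tested, and for S181E it was -0.53 and -0.33. These are descriptions across genes, which are not independent and share library preparation and base composition. EIF4G3 and EIF2AK1, the 2 members past 4-fold over parental cells in wild-type arsenite libraries, were lower in Y396E. In 27 members the CPM was higher in the parental than in the RQ arsenite libraries. Of these, EIF4A2, EIF3G and EIF3I had the lowest recovery and were higher in Y396E. EIF2S2, EIF3A, EIF3H, EIF3J and EIF4ENIF1 were also among the 27 but had negative changes, and the rest had positive ones. EIF3E had the lowest change, at a log2 recovery of 1.07.

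**Figure D5:**
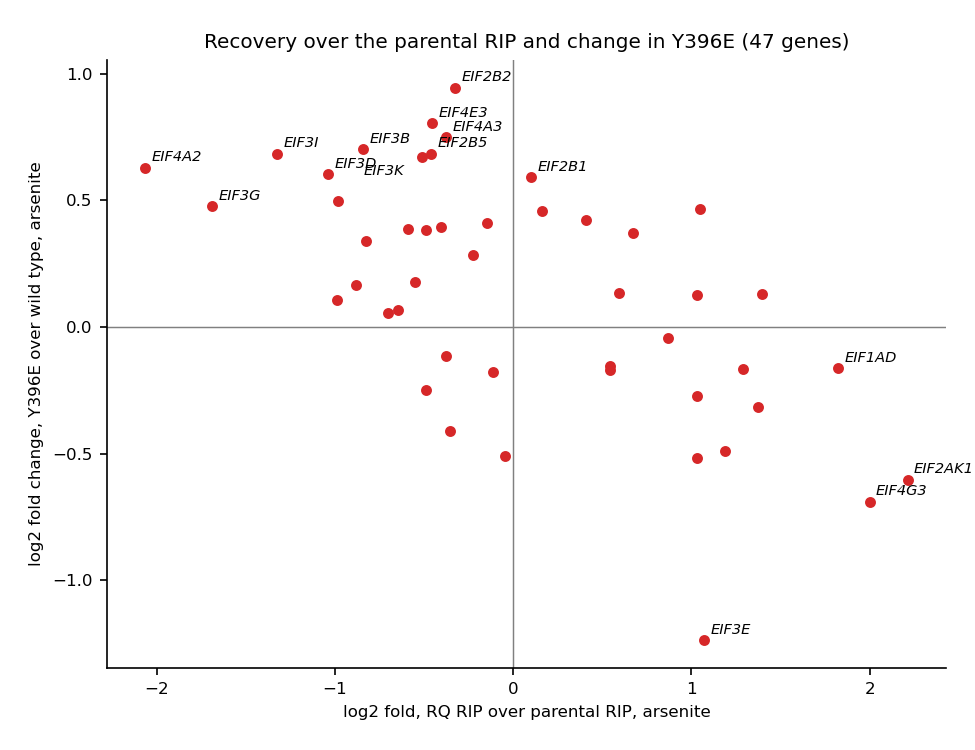
Log2 fold of RQ over parental RIP (x axis) and log2 fold change of Y396E over wild type (y axis), both in arsenite, for the 47 tested initiation factor mRNAs (points). Points fall towards the right (Spearman's rho -0.58), from EIF4A2 at the upper left to EIF4G3 and EIF2AK1 at the lower right, with EIF3E lowest at -1.23.

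Features of the canonical transcripts (GENCODE 44) were set beside the changes in the same descriptive way. After arsenite in wild type, longer coding sequences went with higher change (rho 0.46 over 47 members, 0.36 over 8734 genes), and longer 3′ UTRs with lower change (-0.35 and -0.26). The change of Y396E over wild type in arsenite went with GC content (0.40 and 0.41). These are 3 of 12 relations computed, and all of them share base composition and gene length with library preparation.

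Other genes of the pathway that the name rule does not include were taken from a list of 25, of which 23 were tested. In wild type after arsenite 8 were lower and 10 higher (34.8% and 43.5%, beside 31.8% and 35.4% of all genes tested). In Y396E against wild type in arsenite 3 were lower and 5 higher (13% and 21.7%, beside 19.4% and 13.1%). PABPC1, the cytoplasmic poly(A)-binding protein that bridges to eIF4G, fell by 1.40 ± 0.121 after arsenite in wild type and had a log2 change of -1.95 ± 0.123 in Y396E against wild type in arsenite (edgeR adjusted p = 1.22e-10), below that of any member in the same comparison. PABPC1 and the next 3 genes were named after their values were seen. ABCE1, the recycling factor, and GCN1, the partner of GCN2, rose after arsenite by 1.16 and 1.12, and ATF4, a transcription factor translated under eIF2 alpha phosphorylation, fell by 1.12.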

How the data were processed

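RIP-seq libraries of mCherry-IGF2BP1 were measured in 25 samples, 23 from mCherry lines and 2 from parental cells. Per the labels and file headers, the authors aligned reads to hg38 with STAR 2.7.11b and counted them on exons of GENCODE 46 basic genes with featureCounts (Subread 2.0.6) in reverse-stranded mode, and the deposited values are these raw counts. Reads that map to several places or overlap several genes are left out by default, so paralogs and overlapping genes are counted too low. Symbols and biotypes came from GENCODE 44 (545 of 63086 identifiers were not found).

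Protein-coding genes above 10 CPM in 11.5 or more of 23 mCherry samples entered, with TMM scaling, one edgeR 4.0.16 model of 8 groups (quasi-likelihood test, Benjamini-Hochberg over 8734 genes, R 4.3.3), as in the study's methods. Calls required an adjusted p under 0.05 and a change above 20%. The procedure was tested on simulated data. Of simulated log2 changes of 0.5 it called 36.5% for Y396E against wild type in arsenite, 26.3% for RQ against wild type in arsenite and 27.1% for wild type after arsenite. Of changes of 1 it called 93.7, 89.7 and 94.3%. Small changes were thus mostly missed, and no interaction was simulated. Printed CPM use TMM factors over all 25 libraries, while log2 fold changes come from the model. Ratios to the parental RIP used a floor of 3 counts where its count was 0, which covers counting error only. Tables and plots used Python 3.11.15, pandas 2.3.3 and matplotlib 3.10.9. Named in each comparison were up to 6 called members with the lowest and 6 with the highest change, EIF2A, EIF4E, EIF4G1, EIF4A1, EIF2S1, EIF3A, EIF5A and EIF2AK3. The rule for the members uses names alone, but this gene family and the lists were chosen with earlier results of these data known. The alternatives covered scaling, filter, test, samples in the fit, replicate block, background and leaving out each library. Same-numbered S181E and wild-type arsenite libraries deviated together (correlations 0.283 to 0.392), and this correlation is the only source for pairing them. In no other comparison with 3 pairs did every correlation pass 0.1.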

Additional observations from a re-analysis of the deposited data

Results flagged for a closer look

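The response to arsenite differed between Y396E and wild type for 3 members by the edgeR interaction test. The difference of the log2 changes was 0.64 for EIF3D (0.6354), 0.72 for EIF3G (0.7185) and -0.51 for EIF4G2 (-0.505), with edgeR adjusted p of 0.0196, 0.0415 and 0.0094. The EIF4G2 call was kept when any one library was left out, whereas EIF3G and EIF3D lost theirs as given in the results, and without a filter on low counts the adjusted p of EIF4G2 was 0.0632.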

How the results depend on the processing

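Of 95 pairs of a named member and a comparison, 73 were called under every alternative run, 22 lost their call under at least 1 and none changed sign. Counts of called members moved by over 1.5 times as follows. With only the compared groups in the fit, S181E against wild type gave 7 (control, 15 in the main analysis) and 12 (arsenite, 5), and RQ gave 0 (control, 5) and 7 (arsenite, 0). With total counts they were 11 for RQ in control and 14 for S181E in arsenite. With scaling on genes at or below the parental level RQ in control gave 1. DESeq2's Wald test gave 8 for RQ in control, 2 in arsenite, 2 for the S181E interaction and 1 for the RQ interaction. Without a filter on low counts there was 1 for RQ in arsenite and 1 for the Y396E interaction (3 in the main analysis). With a replicate block the counts were 10 and 3 for RQ in control and arsenite, and 3, 6 and 1 for the S181E, Y396E and RQ interactions, and the block lost no call of a named member. For S181E and wild type in arsenite, which were paired by their correlations, the block gave 3 lower and 4 higher members. Leaving out 1 library gave 2 to 9 for RQ in control and 1 to 3 for the Y396E interaction. Members past the threshold over parental cells numbered 9 (8-fold), 5 (total counts) and 5 (parental arsenite background, added after seeing the data) in control, and 12 (2-fold), 0 (8-fold) and 0 (total counts) in arsenite. The cause of these shifts was not tested, and the shares of all genes were counted in the main analysis alone. The parental control library, with 742207 protein-coding counts, and the 2 RQ arsenite libraries limit the comparisons that use them.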
